A study of Saccharomyces cerevisiae with 7 samples.

Results

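The 10 genes described here are a set of baker's yeast genes known for their response to oxygen and heme: HEM13, ANB1, AAC3, COX5B, ROX1, and the anaerobic cell wall genes DAN1, TIR1, TIR2, TIR3 and TIR4. They were chosen by name, and each had 1 probe set assigned to it alone, so the set holds 10 of the 5656 genes that could be named on the array. Values are array intensities in the authors' arbitrary units, and 12 is the floor under which they are not ranked here. The criterion for testing, an intensity above 12 on at least 2 arrays, was met by 9 of the 10 and by 5220 genes in all. AAC3 did not meet it, and COX5B and DAN1 met it through control arrays alone, so a difference of theirs against control could lie only below 0 and is described with no test. Counts out of 9 members below still include both genes.

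RNA came from chemostat cultures of the haploid laboratory strain CEN.PK113-7D, with cells held at a fixed growth rate by a limited glucose supply. All cultures were aerated, kept at 30 °C and pH 3.5, diluted at 0.1 per h and supplied with glucose at 7.5 g/l. Galacturonic acid, the acid sugar that makes up most of pectin, was present at 10 g/l in one group (2 arrays). Galactose at 0.23 g/l was present in another (2 arrays), and the control group (3 arrays) was fed glucose with no addition. One label field of the galactose arrays names galacturonic acid instead, and the group follows the other fields. Nothing in the labels beyond culture codes says how the cultures of a group were run, so p-values measure the spread between these arrays, which may be technical. The control and galacturonic acid cultures carry codes of 1 series (EH) and both galactose cultures codes of another (MA), so galactose and the code series cannot be told apart. An array reads the RNA of a whole culture, so fewer cells making a transcript and less of it per cell cannot be told apart.

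In yeast, heme is made only when oxygen is present, and the cell reads oxygen largely through heme. With heme available the activator Hap1 switches on ROX1, whose product recruits the Tup1-Cyc8 corepressor to hypoxic genes. Without oxygen that repression is lifted, and the wall is rebuilt with serine- and alanine-rich mannoproteins of the DAN and TIR families, which are also held down in air by Mot3 and switched on by Upc2. The DAN and TIR proteins replace the mannoproteins Cwp1 and Cwp2 of aerobic walls, and strains lacking certain TIR genes fail to grow without oxygen.

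The arrays limit what can be read for the galactose group. The ratio of the 3' to the 5' control probe set of actin (ACT1) reached 19.8 on the first galactose array and at least 268 on the second, against 1.34 and 1.33 on the galacturonic acid arrays and 1.07 to 1.23 on the control arrays. For SPT15 the ratios were 2.76 and at least 42.5 on the galactose arrays, 2.04 and 2.28 on the galacturonic acid arrays and 1.66 to 2.75 on the control arrays. On galactose array 2 both 5' probe sets read under the floor, at 10.5 for ACT1 and 4.1 for SPT15, so its ratios were taken against the floor. On the log2 scale the SD of the median gene within a group was 0.17 with galacturonic acid, 0.52 with galactose and 0.30 in control. The part of RNA quality in the galactose results was not tested. The 7 markers of mating type a, the type of this strain, summed to 6466 to 8021 with galacturonic acid, 4001 to 4493 with galactose and 1579 to 2235 in control, and none lay at or below the floor on all arrays of a group. The 4 markers of mating type alpha summed to 975 to 1020, 90.1 to 237.5 and 75.3 to 113.2 in the same order of groups, and 1 of the 4, MF(ALPHA)2, stayed under the floor throughout. MFA1 and MFA2 made up most of each a sum, and MF(ALPHA)1 (912.4 and 844.7) most of the alpha sum with galacturonic acid. Not every marker moved with the sums. SAG1 read 28.1 and 49.6 with galacturonic acid, against 31.6, 31.4 and 33.0 in control. On galactose array 2 STE2 read 36.9, below its control values of 69.1, 127.9 and 80.0. The part of the marker shifts in the results below was not tested.

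The hypoxic isoform genes were near or under the floor of 12 in every group, in cultures labelled as aerobic. AAC3, which encodes the ADP/ATP carrier of mitochondria used without oxygen, read 5.2 and 3.9 with galacturonic acid, 2.7 and 0.5 with galactose, and 1.0, 2.9 and 1.9 in control. All 7 values lay under 12, so it has no fold in any comparison. COX5B, the hypoxic form of cytochrome c oxidase subunit V, read 5.8 and 4.7 with galacturonic acid, 7.2 and 4.3 with galactose, and 8.3, 13.0 and 12.1 in control. It exceeded the floor on 2 of the 7 arrays, both of them control arrays. ANB1, the hypoxic form of translation factor eIF5A, read 10.9 and 13.5 with galacturonic acid, 18.4 and 17.0 with galactose, and 11.6, 16.7 and 10.7 in control. Both galactose values of ANB1 lay above all control values. Its sequence is close to that of its aerobic partner HYP2, so a share of its signal may come from HYP2 transcripts, and the value is uncertain.

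The regulator and the heme enzyme read above the floor on most arrays. ROX1, the heme-dependent repressor, read 39.6 and 47.4 with galacturonic acid, 57.6 and 6.3 with galactose, and 43.9, 39.3 and 58.0 in control. The galacturonic acid values fell inside the control range, while the galactose pair lay 1 inside it and 1 under the floor. HEM13, coproporphyrinogen oxidase, an oxygen-using step of heme synthesis and a classic Rox1 target, read 70.0 and 44.5 with galacturonic acid, 57.7 and 59.7 with galactose, and 23.6, 39.3 and 48.5 in control. Both galactose values exceeded every control value, and the galacturonic acid pair overlapped control.

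The cell wall genes of the TIR family read well above the floor of 12 in the aerobic control cultures, and galactose cultures read lower for each of them. TIR1 read 103.4 and 87.4 with galacturonic acid, 57.2 and 37.2 with galactose, and 199.7, 87.9 and 118.6 in control. TIR2 read 84.8 and 81.3 with galacturonic acid, 52.5 and 23.8 with galactose, and 168.3, 73.2 and 59.2 in control. In these genes the galacturonic acid values overlapped control, and the galactose values lay beneath all others. TIR3 read 80.5 and 61.6 with galacturonic acid, 55.5 and 40.0 with galactose, and 108.0, 122.4 and 199.5 in control, so the 3 groups did not overlap. TIR4 read 78.8 and 81.0 with galacturonic acid, 10.3 and 10.1 with galactose, and 93.3, 110.2 and 118.0 in control. TIR4 was thus under the floor on both galactose arrays and well above it on the other 5. DAN1, the founding member of the DAN group, read 0.5 and 2.5 with galacturonic acid, 2.0 and 4.4 with galactose, and 9.6, 22.8 and 16.4 in control. Only 2 control arrays read DAN1 above 12.

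**Figure D1:**
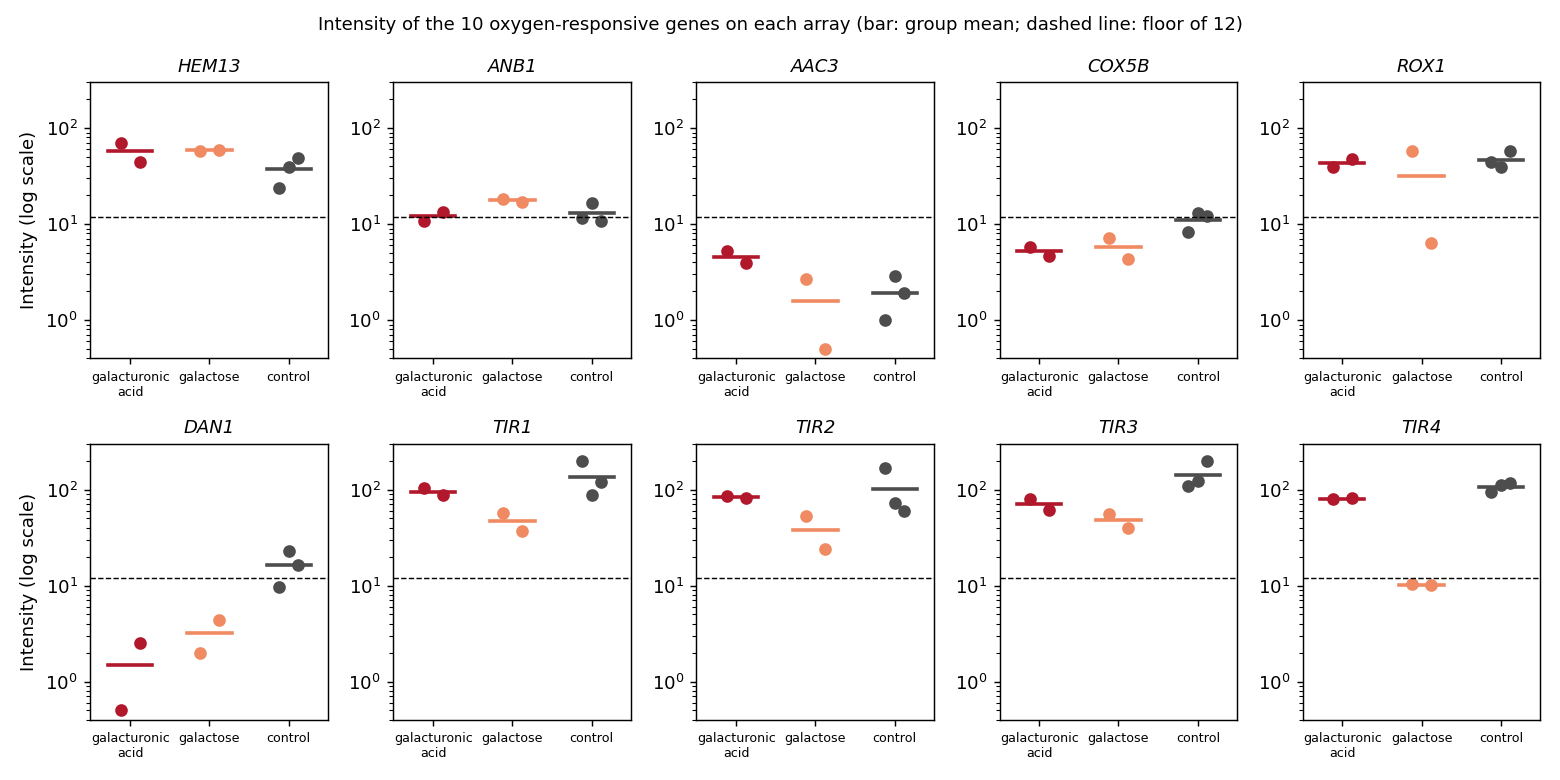
Intensity (log axis) of the 10 genes on the galacturonic acid, galactose and control arrays, where each point is an array, each bar is a group mean and the dashed line marks the floor of 12. The galactose points of TIR4 (10.3 and 10.1) lie under the floor, while its galacturonic acid points (78.8 and 81.0) and control points (93.3 to 118.0) lie well above it.

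The first comparison asked what galacturonic acid did to these genes relative to control. No member passed a Benjamini-Hochberg adjusted p under 0.05 in the limma fit, where 2.32% of all 5220 genes passed. At an unadjusted p under 0.05 it was 1 of 9 members, TIR3, against 12.5% of all genes (6.78% lower). The 4 TIR genes had a median log2 difference of -0.42, beside -0.01 over all genes. TIR3 averaged 71.0 ± 13.4 with galacturonic acid (SD, n = 2) and 143 ± 49.2 in control (SD, n = 3), a log2 difference of -0.97 ± 0.39 (SE) with an adjusted p of 0.339. TIR4 averaged 79.9 ± 1.56 with galacturonic acid and 107 ± 12.6 in control, a difference of -0.42 ± 0.30 (adjusted p = 0.636). In TIR3 and TIR4 both galacturonic acid values lay beneath all control values, as in 21.1% of all genes. No member lay wholly above control, as 20% of all genes did, and COX5B and DAN1 could not. With array weights TIR3 passed (log2 difference -0.99, adjusted p = 0.0394).

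For the remaining wall genes the differences were within about 1 standard error or rested on the floor. TIR1 differed by -0.43 ± 0.42 (SE, adjusted p = 0.769) and TIR2 by -0.12 ± 0.53 (adjusted p = 0.978), and the sign of TIR2 turned to 0.33 without control array 1. DAN1 had both galacturonic acid arrays and 1 control array under the floor, so it has no fold, and the size of its difference depends on how values under 12 are treated.

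The members that are not cell wall genes had no call either. HEM13 was at a log2 difference of 0.65 ± 0.40 (SE, adjusted p = 0.570), with 57.2 ± 18.0 with galacturonic acid and 37.1 ± 12.6 in control (SD, n = 2 and 3). ROX1 was at -0.10 ± 0.59 (adjusted p = 0.985) and ANB1 at -0.07 ± 0.22 (adjusted p = 0.952). COX5B had both galacturonic acid values under the floor. A p that misses the threshold does not show that these transcripts stayed level.

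The galactose cultures, set against the same control arrays, gave the calls in this gene set. TIR3 and TIR4 fell, which is 2 of 9 tested members, where 9.06% of all genes passed the threshold in either direction and 4.31% were lower. The 9 include COX5B and DAN1, which could not rise. TIR4 averaged 10.2 ± 0.14 with galactose (SD, n = 2) and 107 ± 12.6 in control (SD, n = 3). Against the floor this is at least 8.89-fold lower (adjusted p = 0.00183), the 11th smallest p of 5220 genes. In the fit both galactose values of TIR4 were raised to the floor and so added no spread of their own. The p and its rank therefore depend partly on the floor, here and against galacturonic acid. Of 3105 genes above 50 on all 3 control arrays, TIR4 was among 10 (0.322%) at or under the floor on both galactose arrays, against 1 gene on both galacturonic acid arrays. TIR3 averaged 47.8 ± 11.0 with galactose and 143 ± 49.2 in control, a log2 difference of -1.55 ± 0.39 (SE, adjusted p = 0.0457).

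The other TIR genes lay in the same direction without passing. TIR1 averaged 47.2 ± 14.1 with galactose and 135 ± 57.8 in control, a log2 difference of -1.47 ± 0.42 (SE, adjusted p = 0.0621). TIR2 averaged 38.2 ± 20.3 with galactose and 100.2 ± 59.4 in control, a difference of -1.35 ± 0.53 (adjusted p = 0.114). All 4 TIR genes had an unadjusted p under 0.05, as 12.8% of all genes did in this direction. In all 4 both galactose values lay beneath every control value, as did 16.4% of all genes. The median difference of the 4 TIR genes was -1.51, while the median of all 5220 genes was 0.22 in this comparison, and scaling each array to its 75th percentile brought that median to 0.04. DAN1 had both galactose arrays under the floor and has no fold.

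The calls differ in how much they rest on single arrays. TIR4 passed in each of the 19 alternatives that tested it, with adjusted p from 0.000623 to 0.0244, and its log2 difference ranged from -3.39 with a floor of 1 to -1.09 with a floor of 50. TIR3 passed in 9 of 20 alternatives, with adjusted p up to 0.249, and was lost without any one control array, without either galacturonic acid array and without galactose array 2. Without galactose array 1, ROX1, TIR1, TIR2, TIR3 and TIR4 all passed, in a fit where 41.1% of all genes did. Without galactose array 2, only TIR4 did, where 3.66% of all genes passed.

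Array by array, the shift of TIR4 from the control mean was -3.15 on both galactose arrays, the limit set by the floor, and 0.211% and 2.74% of genes had a lower shift on galactose arrays 1 and 2. TIR1, TIR2 and TIR3 shifted by -1.16, -0.78 and -1.32 on galactose array 1 and by -1.78, -1.92 and -1.79 on galactose array 2. On array 1 between 3.70% and 8.62% of genes had lower shifts than these 3, and on array 2 between 9.46% and 11.1%. Shifts of TIR1 to TIR3 were therefore larger on array 2, the array with the higher 3'/5' ratios, and stood less apart from the other genes of that array. Coding lengths of the 4 TIR genes run from 756 bases (TIR2) to 1464 bases (TIR4). The 1353 tested genes of 500 to under 1000 bases had a median shift of 0.35 on galactose array 1 and 0.01 on array 2, and the 1188 genes of 1000 to under 1500 bases had medians of 0.34 and -0.07.

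Among the members that are not cell wall genes, the galactose group had no call. HEM13 averaged 58.7 ± 1.41 with galactose and 37.1 ± 12.6 in control, a log2 difference of 0.72 ± 0.40 (SE, adjusted p = 0.225). ANB1 averaged 17.7 ± 0.99 with galactose and 13.0 ± 3.24 in control, a difference of 0.40 ± 0.22 (adjusted p = 0.222). Both genes had galactose values above all control values, a separation that 31.4% of all genes showed in that direction. ANB1 has 474 coding bases and shifted by 0.46 and 0.34 on galactose arrays 1 and 2. The 618 tested genes under 500 bases had median shifts of 0.20 and 0.69 on these arrays. The part of coding length was not tested. ROX1 was at -0.82 ± 0.59 (adjusted p = 0.350), which turned to 0.31 without galactose array 2 and to -1.95 without galactose array 1 (adjusted p = 0.00679), so its 2 galactose arrays do not give 1 answer. A fit without 1 of them leaves a single galactose array, assumed to vary like the other groups. COX5B was under the floor on both galactose arrays.

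**Figure D2:**
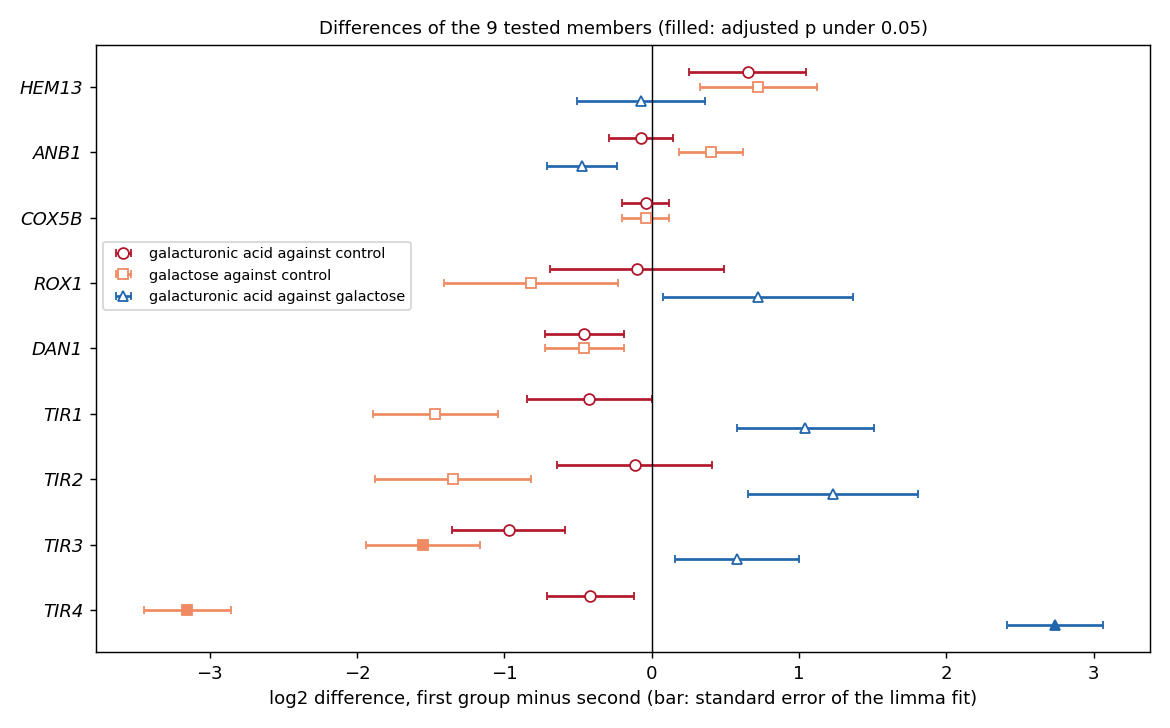
Log2 differences of the 9 tested members in 3 comparisons, first group minus second, with standard errors of the limma fit, where filled symbols mark an adjusted p under 0.05 and pairs with both groups under the floor are left out. TIR4 stands apart at -3.15 for galactose against control and 2.74 for galacturonic acid against galactose, while all differences of galacturonic acid against control lie between -0.97 and 0.65. COX5B and DAN1 are drawn, though against control they could lie only below 0.

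The third comparison set the 2 supplemented groups against each other, which shares the galacturonic acid arrays with the first and the galactose arrays with the second. TIR4 was higher with galacturonic acid, at 79.9 ± 1.56 against 10.2 ± 0.14 with galactose (SD, n = 2 each), at least 6.66-fold (adjusted p = 0.00653). It was the sole member to pass, 1 of 9, where 13.1% of all genes did (5.23% higher), and it held in 15 of 20 alternatives. It was lost without galacturonic acid array 1 (adjusted p = 0.0839) or array 2 (0.0821), with a floor of 50 (0.0720), in the fit of these 2 groups alone (0.0869) and with the replicate block (0.0703). All 4 TIR genes had both galacturonic acid values above both galactose values, as had 22.6% of all genes. TIR1 was at a log2 difference of 1.04 ± 0.46 (SE, adjusted p = 0.143), TIR2 at 1.23 ± 0.58 (adjusted p = 0.161) and TIR3 at 0.58 ± 0.42 (adjusted p = 0.344). ANB1 was lower with galacturonic acid on each array, at -0.47 ± 0.24 (adjusted p = 0.186), a separation 41.1% of all genes showed. HEM13 (-0.07 ± 0.43) and ROX1 (0.72 ± 0.65) did not pass, with adjusted p of 0.925 and 0.444, and ROX1 passed without galactose array 1 (1.85, adjusted p = 0.00817), in a fit where 44.6% of all genes did and the lone galactose array read 6.3, under the floor. DAN1 and COX5B, counted among the 9, were under the floor in both groups and so could not pass.

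Ordered by level, TIR1, TIR2, TIR3 and TIR4 each had their lowest mean with galactose, an intermediate mean with galacturonic acid and their highest mean in control. Between galacturonic acid and control no step of that order exceeded the spread between arrays by the adjusted test, and between galactose and galacturonic acid the step of TIR4 did. HEM13 was lowest in control, and its means with galacturonic acid and galactose, 57.2 and 58.7, differed by less than the SD of 18.0 between the galacturonic acid arrays.

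The levels of the TIR genes were positively correlated from array to array. Over the 7 arrays, which share groups and preparation, Pearson's r of log2 intensity between pairs of TIR genes ran from 0.50 (TIR2 with TIR3) to 0.92 (TIR1 with TIR2). TIR2 and TIR4, which lie next to each other in the RefSeq annotation of assembly R64, had an r of 0.71. HEM13 correlated with the 4 TIR genes at -0.68 to -0.41, and ROX1 with them at 0.50 to 0.64. These are descriptions of 7 arrays in 3 groups. Group means were left in, so the r values include the differences between groups, such as the low TIR values with galactose.

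Among 3095 other tested genes with an SD of at least 0.5 over the arrays, the closest pattern over 7 arrays was sought for HEM13, ANB1, ROX1, DAN1 and TIR1. LPX1, a peroxisomal lipase, was closest to TIR1 (r = 0.97), with 611.2 and 510.9 with galacturonic acid, 173.7 and 72.9 with galactose, and 1162.6, 410.6 and 611.3 in control. Like TIR1, it was lowest on both galactose arrays and highest on control array 1. For HEM13 it was HPA3 (r = 0.95), for ANB1 RPT4, an ATPase of the proteasome cap (r = 0.99), and for ROX1 BUD23, a methyltransferase of ribosome maturation (r = 0.98), which like ROX1 was under the floor on galactose array 2 alone, at 8.2. For DAN1 it was PBI1 (r = 0.99), a match that rests on 2 control arrays above the floor. ANB1 exceeded the floor on 4 of the 7 arrays. Each r is the highest among 3095 genes over only 7 arrays, so a high value comes partly from the search itself.

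Relatives of the wall genes gave a wider view of this protein family. The list held DAN3, DAN4, TIP1 and the seripauperin genes PAU1 to PAU24, small proteins related to the TIR products that are likewise raised without oxygen. Of its 27 genes, 12 had a probe set of their own and all 12 were tested. The probe sets of all 10 PAU genes among them are of the array's family type, so near-identical PAU genes may share signal and each value is uncertain. These 10 genes have 168 to 375 coding bases. Tested genes under 500 bases had median shifts of 0.20 and 0.69 on galactose arrays 1 and 2. With galactose 2 of 12 fell, PAU7 and PAU10, and none rose, where 9.06% of all genes passed and 4.31% were lower. PAU7 read 41.2 and 19.7 with galactose against 89.9, 319.5 and 199.3 in control (log2 difference -2.65 ± 0.57 SE, adjusted p = 0.0352). PAU10 read 35.0 and 37.0 with galactose against 65.6, 138.5 and 125.9 in control (-1.54 ± 0.39, adjusted p = 0.0479). All 12 differences lay below 0, from -2.65 to -0.15 with a median of -1.31, where 39.9% of all genes lay below 0.

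With galacturonic acid none of the 12 relatives passed, where 2.32% of all genes did, and 11 had differences below 0, with a median of -0.89, where 50.8% of all genes lay below 0. The exception was DAN4, which read 113.5 and 150.9 against 99.3, 91.7 and 67.5 in control (0.62 ± 0.34 SE, adjusted p = 0.519). PAU7 had the smallest p, with 33.5 and 47.3 against the control values given above (-2.17 ± 0.57 SE, adjusted p = 0.128). With array weights it passed (adjusted p = 0.00174). The PAU7 and PAU10 calls with galactose were lost without any one array other than galactose array 1, with adjusted p of up to 0.125 for PAU7 and 0.142 for PAU10. Galacturonic acid against galactose gave no call in this list, where 13.1% of all genes passed, and PAU10 had the smallest p (1.35 ± 0.43, adjusted p = 0.0676).

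**Figure D3:**
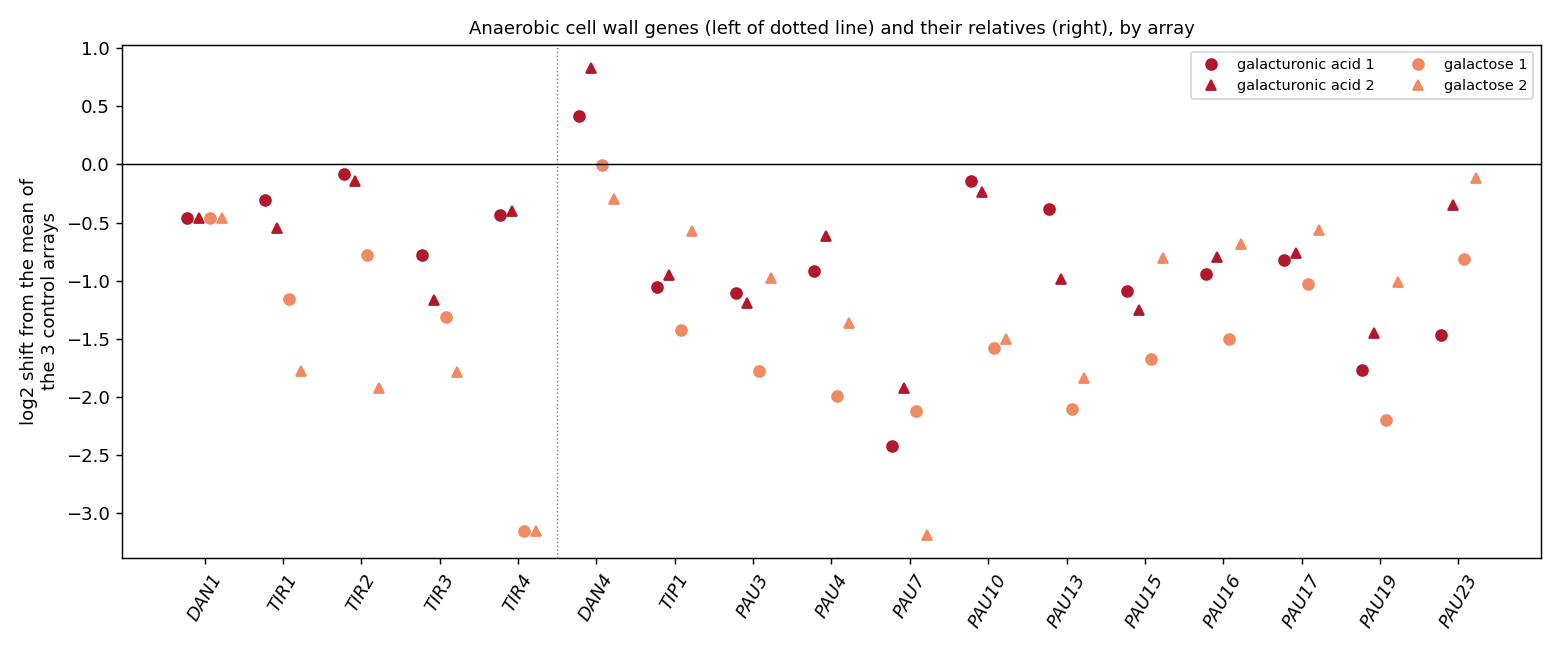
Log2 shift from the mean of the 3 control arrays for the 5 anaerobic wall genes (left of the dotted line) and 12 relatives (right) on each galacturonic acid and galactose array. Most points lie below 0. TIR4 sits at -3.15 on both galactose arrays, and the 4 points of DAN1 all stand at -0.46 because all 4 values were under the floor.

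Of 10 tested genes for mannoproteins of the aerobic wall, 1 passed in each comparison with control, where 2.32% of all genes did with galacturonic acid and 9.06% with galactose. Of the list, CWP1 and CWP2 encode the proteins named above as replaced by the DAN and TIR proteins. CWP2 was at -0.10 ± 0.30 (SE, adjusted p = 0.950) with galacturonic acid and -0.96 ± 0.30 (adjusted p = 0.0719) with galactose. CWP1 fell with galacturonic acid, to 28.8 and 37.7, against 170.4, 234.9 and 163.3 in control (-2.50 ± 0.45 SE, adjusted p = 0.0330). With galactose HSP150, a Pir-type wall protein, fell to 171.9 and 44.7, against 697.5, 476.4 and 553.6 in control (-2.70 ± 0.52, adjusted p = 0.0263). The medians of the list were -0.14 with galacturonic acid and -1.54 with galactose, beside -0.42 and -1.51 for the 4 TIR genes. HSP150, CIS3 and PIR3 were higher with galacturonic acid than with galactose, by log2 differences of 3.17, 2.91 and 2.60 (adjusted p = 0.0189, 0.0198 and 0.0431), which is 3 of 10 where 13.1% of all genes passed. These and the calls of other lists below rest on few arrays. Of 9 list genes called between the supplemented groups, all 9 were lost in the fit of those 2 groups alone and without either galacturonic acid array (adjusted p up to 0.266 over the alternatives). The 5 list calls with galactose against control were lost in the 2-group fit and whenever 1 array of the control or galacturonic acid group was left out, and held in 7 to 11 alternatives each (adjusted p up to 0.227). CWP1 with galacturonic acid held in 12 of 20 and was lost whenever 1 array of either group was left out (adjusted p up to 0.462).

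The aerobic partners of the hypoxic isoforms were far above the floor on nearly all arrays. COX5A, the aerobic form of subunit V, read 1522.3 and 1615.8 with galacturonic acid, 768.6 and 66.5 with galactose, and 1470.7, 1151.5 and 1019.7 in control. Its difference was 0.39 ± 0.84 (SE) with galacturonic acid and -2.41 ± 0.84 with galactose against control, with adjusted p of 0.930 and 0.0930, and of the 2 galactose arrays the second was far the lower. HYP2, the aerobic eIF5A gene, read 4550.0 and 2944.1 with galacturonic acid, 3188.3 and 6049.6 with galactose, and 5253.5, 3930.9 and 5709.1 in control, with overlapping groups. PET9, the main ADP/ATP carrier, read 1753.3 and 1083.0 with galacturonic acid, 1136.9 and 406.9 with galactose, and 2141.0, 1390.4 and 1624.6 in control. AAC1, a minor carrier of aerobic cells, read 134.9 and 182.0 with galacturonic acid, 204.5 and 222.1 with galactose, and 395.1, 251.6 and 261.9 in control. None of these 4 passed in the 3 comparisons. Of all genes 2.32% passed with galacturonic acid against control, 9.06% with galactose against control and 13.1% between the supplemented groups. HMG1, the aerobic form of HMG-CoA reductase, fell with galactose (-1.26 ± 0.29, adjusted p = 0.0395) and was at -0.91 ± 0.29 with galacturonic acid (adjusted p = 0.207), and CYC1, the aerobic cytochrome c, was higher with galacturonic acid than with galactose (1.32 ± 0.33, adjusted p = 0.0390).

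Among other genes of heme supply, none of 7 heme synthesis genes passed against control, where 2.32% of all genes did with galacturonic acid and 9.06% with galactose. The smallest p was that of HEM3, porphobilinogen deaminase, with galacturonic acid (0.90 ± 0.24 SE, adjusted p = 0.132) and that of HEM1, the first enzyme of the pathway, with galactose (-1.61 ± 0.61, adjusted p = 0.108). HEM3 was under the floor on both galactose arrays and at least 2.72-fold higher with galacturonic acid than there (adjusted p = 0.0193). In that comparison 13.1% of all genes passed. Of 16 further hypoxic or Rox1-repressed genes 15 were tested, with no call against control in either group, beside the same shares over all genes. ARE1, an acyltransferase that stores sterols as esters, had the smallest p in both, with differences of 1.12 ± 0.44 with galacturonic acid (adjusted p = 0.337) and -1.51 ± 0.44 with galactose (adjusted p = 0.0640). Between the supplemented groups ARE1 was higher with galacturonic acid (2.63 ± 0.48, adjusted p = 0.0193) and EUG1, a protein disulfide isomerase of the endoplasmic reticulum, was lower (-1.47 ± 0.38, adjusted p = 0.0415). The EUG1 call held in 6 of 20 alternatives and was lost after quantile and 75th percentile scaling.

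Of 15 regulators 14 were tested, and UPC2 was not, since it exceeded the floor on fewer than 2 arrays. Over all genes 2.32% passed with galacturonic acid against control, 9.06% with galactose against control and 13.1% between the supplemented groups. With galactose SUT2, a transcription factor related to the sterol uptake regulator Sut1, rose to 164.0 and 421.5, against 88.3, 66.0 and 85.6 in control (1.73 ± 0.44 SE, adjusted p = 0.0468). This call held in 7 of 20 alternatives and was lost after quantile scaling, after 75th percentile scaling and under the filter at the median level. With galacturonic acid SUT1 had the smallest p (1.51 ± 0.41, adjusted p = 0.133). HAP5, a subunit of the Hap2/3/4/5 activator of respiratory genes, was higher with galacturonic acid than with galactose (1.98 ± 0.39, adjusted p = 0.0220), and SUT2 was lower (-2.33 ± 0.48, adjusted p = 0.0241). Of 7 further cytochrome c oxidase subunits none passed in any comparison, beside the same shares over all genes. Their medians were 0.28, 0.21 and 0.07 in the order given above. COX8 had the smallest p with galacturonic acid (0.58 ± 0.43, adjusted p = 0.652), COX9 with galactose (-0.58 ± 0.28, adjusted p = 0.176) and COX4 between the supplemented groups (0.84 ± 0.34, adjusted p = 0.119).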

How the data were processed

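RNA was hybridised to 7 Affymetrix arrays of 1 colour, per the labels' protocols, and GCOS 1.2 was used, per the submitters' processing notes. The values deposited by the authors are linear intensity values per probe set, and the mean of each array without its top and bottom 2% was 150.1. The signal algorithm is not given in the sources used here, and no genome build is named, so no coordinates are printed. Of 9335 probe sets, 6504 name 1 gene, 328 several and 2503 are not listed. Genes were named through RefSeq (R64), with the probe set of highest mean per gene.

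Values were raised to a floor of 12, taken as log2 and fitted with limma 3.58.1 (R 4.3.3; a mean per group over all 7 arrays, eBayes with intensity trend, 4 residual degrees of freedom), with Benjamini-Hochberg adjustment over 5220 genes at 0.05. The fit was tested on simulated data. Means ± SD are of values without the floor. A fold written as "at least" sets the brighter group's mean against the floor, because each array of the other group read under it. The number of arrays limits precision.

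Members and lists were chosen with earlier results of these data known. All 10 members are named. Of each related list the text names genes past the threshold (at most 4 by p) or the one with the smallest p, and HYP2, COX5A, PET9 and AAC1 always. Replicate numbers follow deposit order. Alternatives were a lower and a higher floor (1 and 50), adding 16 before log2 with no floor, quantile and 75th percentile scaling, other filters and probe set rules, variance models, a threshold of 0.01, fits of fewer arrays and a replicate block.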

Additional observations from a re-analysis of the deposited data

How the results depend on the processing

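Against control, the count of members past the threshold with galacturonic acid, 0 in the report, was 1 with a floor of 1 and as log2 of the value plus 16 (DAN1 in each, a gene that met the filter through control arrays alone, so nothing is read from it) and 1 with array weights (TIR3), and 0 to 0 when each array was left out. With galactose the count, 2 in the report, was 1 without a filter on low genes, with array weights, at a threshold of 0.01 and in the fit of those 2 groups alone (TIR4 in each), 0 under the filter at the median level, where TIR4 was not tested, and 1 to 5 when each array was left out. For galacturonic acid against galactose the count, 1 in the report, was 0 with a floor of 50, under the filter at the median level, in the fit of those 2 groups alone and with the replicate block, and 0 to 2 when each array was left out. The replicate block was fitted only between these 2 groups, where 1 label field ends in 1 and 2, digits that may belong to the unit of the dilution rate. It ends in 1 for each control array. With 2 arrays per group, deviations from the group means mirror each other, so the second pair of same-numbered arrays repeats the first. Their correlation cannot establish a pairing. The block moved the count over all genes to 12, from 686.

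Over all genes the counts were 121, 473 and 686 in the order of the comparisons. They were 58, 178 and 244 without a filter, 77, 120 and 153 under the filter at the median level, 774, 16 and 135 with array weights, 23, 25 and 49 at a threshold of 0.01, and 256, 38 and 0 in fits of 2 groups, where the last, by limma, had 1250 genes at an unadjusted p under 0.05. Leaving out each array gave 1 to 287, 21 to 2145 and 4 to 2327. The share of calls that were higher, 52.4% with galactose and 39.8% between the supplemented groups, was 31.8% and 58.0% after quantile scaling and 23.5% and 66.4% after 75th percentile scaling.

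Of 1240 values of single genes under alternatives, 1035 kept direction and side of the threshold, 164 lost it, 22 gained it and 19 changed sign, of which 0 passed the threshold. Only results called in the report could lose the threshold, and most of the 1240 values belong to results that were not called. The 1035 therefore do not measure how stable the calls were. With a floor of 50, ROX1 turned to 0.031 with galactose against control and -0.10 between the supplemented groups, and HEM13 to 0.011 between those groups, where it was also 0.11 (quantile) and 0.10 (75th percentile). HYP2 with galactose became 0.21 (quantile) and TIR2 with galacturonic acid 0.10 (array weights). With each array left out in turn, differences of galacturonic acid against control ran from -0.16 to 0.085 for ANB1, -0.23 to 0.061 for ROX1, -0.42 to 0.33 for TIR2 and -0.64 to 0.052 for PET9. With galactose against control they ran from -1.95 to 0.31 for ROX1 and -0.62 to 0.30 for HYP2, and between the supplemented groups from -0.40 to 0.25 for HEM13, -0.41 to 1.85 for ROX1 and -0.72 to 0.20 for HYP2. The cause of these changes was not tested. Values under the floor have no order, which limits AAC3, COX5B, DAN1 and ANB1 throughout.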
